A study of Mus musculus with 2 samples.

Results

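Mitochondrial ribosomal protein genes were taken as the protein-coding mouse genes whose symbols begin with Mrpl or Mrps. There are 78 of them in the annotation, 49 for the large subunit (Mrpl) and 29 for the small subunit (Mrps). Of these, 70 (42 large, 28 small) had 20 or more reads over both libraries on introns matched to that gene alone. Over genes of all kinds, 8365 did. The cells were adherent peritoneal exudate macrophages of male C57BL/6JJcl mice, collected 3 days after thioglycolate, left to adhere for 24 h, and then exposed to IL-10 (100 ng/ml, 4 h) or left without it (untreated). One library was sequenced for each condition, so the spread between animals or cultures is unknown and no test of the treatment was possible. The deposited values are counts of reads that cross splice junctions, 3998954 of them with IL-10 and 4035991 untreated. Macrophage markers checked the label: 9 of 10 had 20 or more reads, and Cd14 had no read on a named intron. Their sum was 16810 RPM (reads per 1000000 named reads) with IL-10 and 20550 RPM untreated. Lyz2 gave the most reads (31849 with IL-10, 45047 untreated), and of the 9 markers 4 were higher with IL-10 and 5 lower. Neutrophil markers summed to 81.0 RPM with IL-10 and 69.1 RPM untreated. All of it was Csf3r (311 reads with IL-10, 267 untreated), with 7 of 8 genes at 0 (S100a8 and S100a9 among them). B cell markers summed to 127 RPM with IL-10 and 141 RPM untreated, with Cd79a and Pax5 among the genes at 0. Nearly all of it was Cd22 (450 reads with IL-10, 497 untreated) and Ighm (34 with IL-10, 42 untreated). T and NK cell markers summed to 1.56 RPM with IL-10 and 0.259 RPM untreated, with 5 of 7 genes at 0. Fibroblast and mesothelial markers, 8 of 8 detected, summed to 328 RPM with IL-10 and 300 RPM untreated. In all these lists, a gene's introns were named only where at least 2 of them matched, so a marker at 0 may be unmatched and not absent. The part of other cells in the results was not tested. In such bulk samples, fewer cells of a type and less RNA per cell cannot be told apart.

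Mitochondria keep their own ribosome, which makes only the hydrophobic core subunits of the respiratory chain and the ATP synthase that the mitochondrial genome encodes. Its RNAs come from that genome, but every one of its proteins is encoded in the nucleus, made in the cytosol and imported. The large subunit joins amino acids and passes the new chain out through a tunnel towards the inner membrane, and the small subunit binds the messenger RNA and reads its codons. Compared with its bacterial relatives the mitochondrial ribosome has less RNA and many added proteins, so some members have a bacterial counterpart and some do not. Macrophages depend on respiration to differing degrees after inflammatory and anti-inflammatory signals, and IL-10 restrains the inflammatory kind of activation.

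The splice junctions that carried the counts below can be read as exon joins. For the members with the most telling counts, the 15 last bases of the upstream exon are given in lower case and the 15 first bases of the downstream exon in capitals, 5′ to 3′, from the GENCODE M21 transcripts, with the intron's position in mm9. Mrpl52 is shown for the join with the largest share of all member reads, Mrps10 and Mrps18a for high ratios, and Mrpl10, Mrps24 and Mrpl13 for a first or inner intron that held most of the deficit.
Mrpl52, chr14:55046076-55047420, plus strand: actggtccttcgcggATGGCCGCCCTGCAC
Mrps10, chr17:47505904-47509375, plus strand: cggcgcctgcagcagGAATTGGGGAATTCC
Mrps18a, chr17:46248079-46254888, plus strand: gcgggttgagagaagTGGTGAAGATCCAAG
Mrpl10, chr11:96902967-96905841, plus strand: tcccgccccgggcggCTTGGCTGCCCACCC
Mrps24, chr11:5607559-5607626, minus strand: gggctagggcagcggGTGCTGGCCTGCAGC
Mrpl13, chr15:55371765-55374878, minus strand: aaagaccccgtggcgATTGTGAAATTGGCT

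With IL-10, the mitochondrial ribosomal protein genes as a set had a summed share close to that in untreated cells, and this rested on Mrpl52. Each gene's ratio is its share of the named-intron reads in the IL-10 library over that in the untreated library, with an exact 95% interval that covers counting error only. The 70 genes together had 7935 reads with IL-10 and 8094 untreated, a ratio of 0.988 (0.957 to 1.02). Without Mrpl52 the other 69 had 6932 reads with IL-10 and 7331 untreated, a ratio of 0.953 (0.922 to 0.985), and leaving out any other single gene kept 1 inside the interval. No gene reached a 2-fold difference with an interval off 1 (0 of 70 in either direction), where over all 8365 genes 1.76% did so upwards and 1.49% downwards. The interval lay above 1 for 7 members (10% of 70), against 12.9% of all genes, and below 1 for 9 members (12.9% of 70), against 13.0% of all genes. Among genes with as many reads as the members the background was 11.7% above and 11.4% below, and among genes with a transcript under 1500 bases it was 8.92% above and 19.9% below. The members' shares thus stood near the background over all genes in both directions. Ratios stayed within 1.5-fold for 60 of 70 members (85.7%), against 85.3% of all genes.

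**Figure D1:**
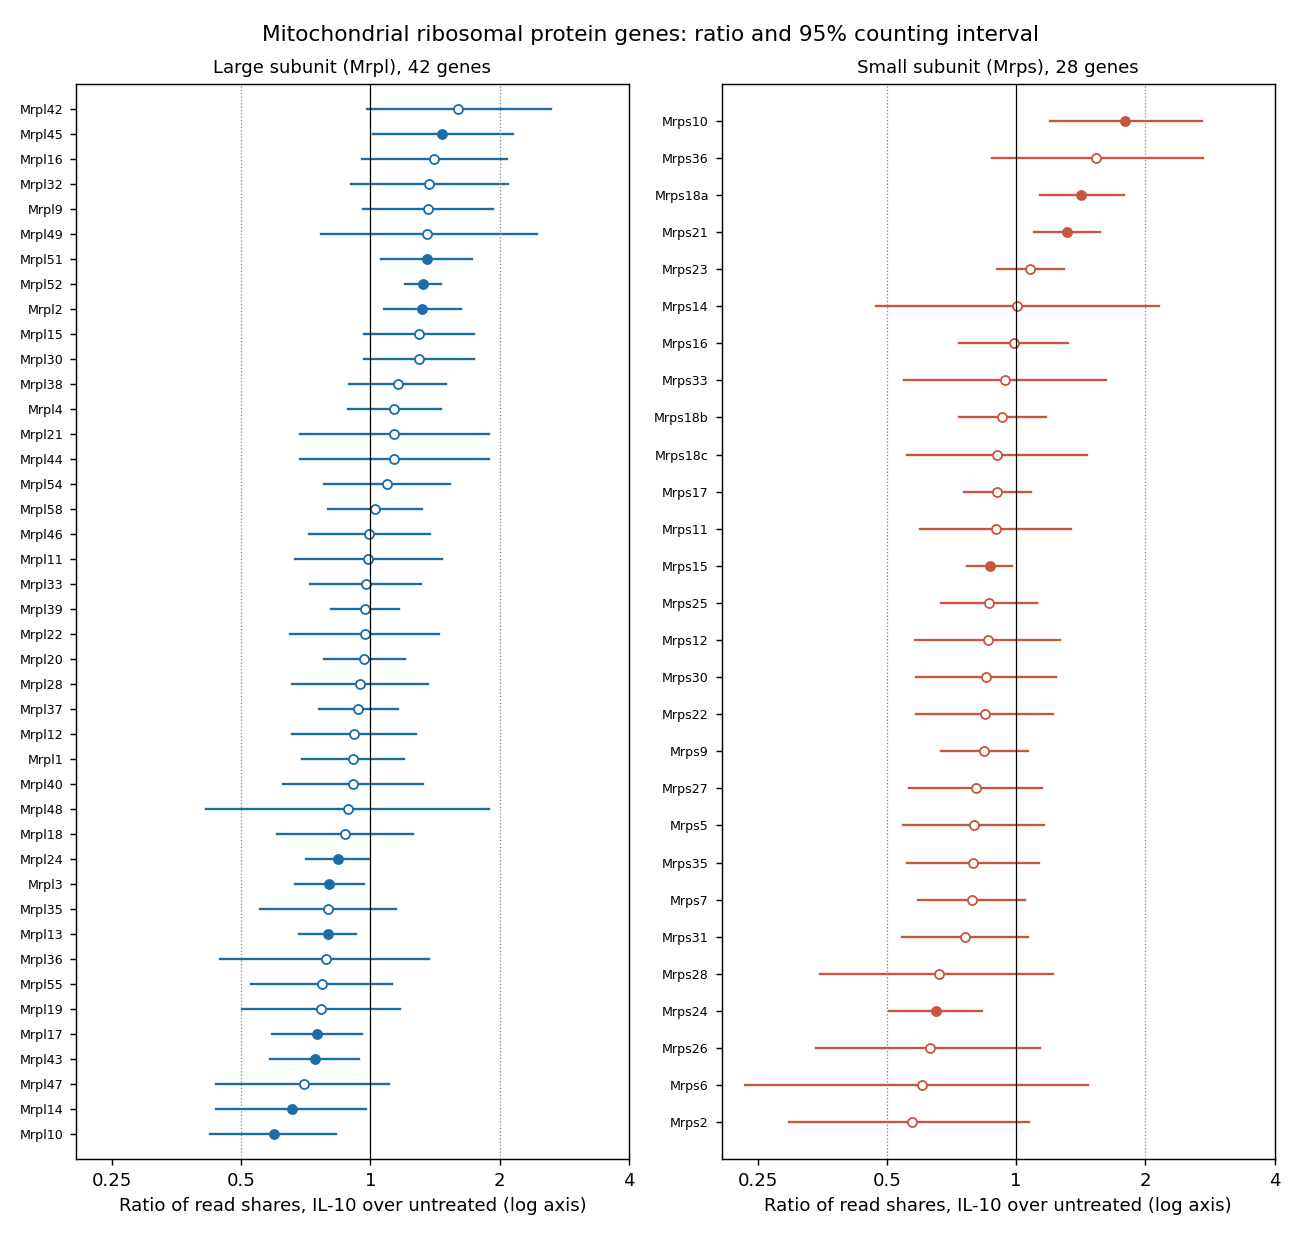
Ratio of read shares, IL-10 over untreated, on a log axis for the 42 Mrpl genes (left) and 28 Mrps genes (right), 1 library per condition; bars are exact 95% counting intervals and filled points have an interval off 1. Filled points sit on both sides of 1 in each panel, and no filled point reaches the dotted lines at 2 and 0.5.

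Most single ratios lay slightly under 1. This held for 47 of 70 members, 25 of 42 in the large subunit and 22 of 28 in the small subunit, against 50.1% of all genes and 60.9% of genes with a transcript under 1500 bases. Their median log2 ratio was -0.13, against -0.0013 over all genes. In the large subunit the median was -0.04 and in the small subunit -0.21, a difference of 0.17. Transcript length moved with the ratio over all genes: the median log2 ratio was -0.10 for transcripts under 1000 bases and 0.06 for those of 4000 bases or more. Of the 70 members, 41 had a transcript under 1500 bases, and these had a median of -0.08, against -0.09 for all 1099 genes of that length. Longer members lay further below genes of their length in 2 of 3 classes: the median was -0.31 for 9 members of 1500 to 2500 bases, against -0.06 for all genes of that length, and -0.32 for 9 members of 4000 bases or more, against 0.06. The 11 members of 2500 to 4000 bases had a median of -0.02, against -0.0027. The untreated library had the longer insert (197 bp, against 188 bp with IL-10), and the part of length or insert size in the ratios was not tested.

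The large-subunit genes summed to 5067 reads with IL-10 and 5009 reads without, a ratio of 1.02 (0.980 to 1.06). Mrpl52 alone supplied 1003 of the IL-10 reads and 763 of the untreated reads, and without it the ratio was 0.964 (0.923 to 1.01). The small-subunit genes summed to 2868 reads with IL-10 and 3085 reads in untreated cells, a ratio of 0.937 (0.890 to 0.986). The 16 small-subunit genes with a transcript under 1500 bases had a summed ratio of 0.986 (0.9265 to 1.05). For the 25 such large-subunit genes it was 1.045 (0.997 to 1.10). Leaving out 1 small-subunit gene at a time gave ratios between 0.907 and 0.953, and the interval then held 1 without Mrps15 (0.952, 0.900 to 1.01) and without Mrps24 (0.953, 0.905 to 1.004). The proteins of Mrps18a and Mrps30 sit in the large subunit in mammalian structures despite their symbols. Moved there, they left the large-subunit sum at 1.03 (0.989 to 1.07) and the small-subunit sum at 0.916 (0.868 to 0.966).

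**Figure D2:**
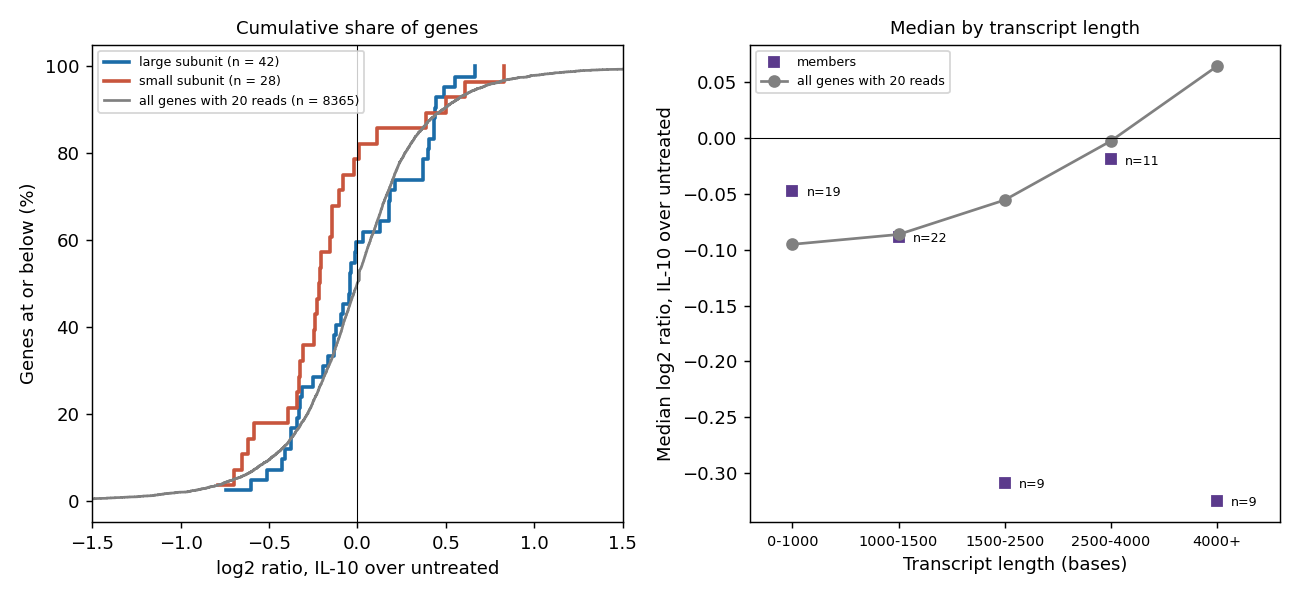
Left, cumulative share of genes by log2 ratio (IL-10 over untreated) for the large subunit, the small subunit and all 8365 genes; right, median log2 ratio by transcript length for members and for all genes. The small-subunit curve lies left of the other curves around 0, and the median over all genes climbs with transcript length, which the members' medians do not follow step by step.

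Levels were compared on the intron with the most reads in each gene, which offers every gene a window of the same size. By this measure the 70 members spanned 1.56 to 119.6 RPM with IL-10 and 1.55 to 77.6 in untreated cells. Their medians were 8.08 with IL-10 and 8.54 in untreated cells, near the medians of all genes (7.56 with IL-10 and 7.50 untreated). Mrpl52 was the highest at 119.6 RPM with IL-10 and 77.6 in untreated cells. Mrps21 followed with IL-10 (43.8, against 32.1 untreated), while Mrps15 was next in untreated cells (34.9 with IL-10, 38.8 untreated). Mrps6 was the lowest with IL-10 at 1.56, against 2.07 untreated.

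Among the large-subunit genes with higher ratios, Mrpl52 had by far the most reads. Mrpl52, a protein without a bacterial counterpart, had 1003 reads with IL-10 and 763 in untreated cells, a ratio of 1.32 (1.20 to 1.46). Each of the 4 introns with at least 5 reads pointed the same way, and the join printed above had 459 reads with IL-10 and 300 in untreated cells. It was the only one of the 16 members with an interval off 1 that kept it off 1 whichever single intron was left out, the nearest to 1 being 1.18 (1.04 to 1.34). For the other 15, at least 1 such omission brought 1 into the interval. The omissions are not alike between genes. Mrpl52 had the most reads, and Mrpl17, Mrpl43 and Mrps21 had only 2 matched introns each, so 1 omission takes a large part of their reads.

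Mrpl2, the counterpart of the bacterial protein L2 near the site of peptide bond formation, had 223 reads with IL-10 and 170 in untreated cells, a ratio of 1.32 (1.08 to 1.62). Its first intron held most of that surplus, with 116 reads under IL-10 and 69 untreated, and the remaining introns gave 1.07 (0.806 to 1.42). Mrpl51, another protein without a bacterial counterpart, had 161 reads with IL-10 and 120 in untreated cells, a ratio of 1.35 (1.06 to 1.73). These genes were higher in the IL-10 library by about the same factor as Mrpl52, on far fewer reads.

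At the exit of the peptide tunnel, 4 of 5 measured genes had ratios below 1 and 1 a ratio above it. Over all measured large-subunit genes, 25 of 42 (59.5%) had ratios below 1. Mrpl45, which tethers the ribosome to the inner membrane, had 73 reads with IL-10 and 50 in untreated cells, a ratio of 1.47 (1.01 to 2.15). Mrpl17 had 123 reads with IL-10 and 165 in untreated cells, a ratio of 0.751 (0.590 to 0.954). Its first intron carried the whole difference, 86 reads with IL-10 and 129 without, while the second had 37 with IL-10 and 36 untreated.
Mrpl24 had 257 reads with IL-10 and 308 in untreated cells, a ratio of 0.841 (0.710 to 0.995). Mrpl22, whose bacterial relative lines the tunnel, had 52 reads with IL-10 and 54 in untreated cells, so the libraries were level. Mrpl47 had 34 reads with IL-10 and 49 in untreated cells, a ratio of 0.699 (0.438 to 1.11). The sum of the 5 was 539 with IL-10 and 626 in untreated cells, a ratio of 0.867 (0.772 to 0.975), and its interval held 1 without Mrpl17 (0.909) or without Mrpl24 (0.893).

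The stalk of the large subunit recruits the elongation factors that drive translation. Mrpl10, its base, had 58 reads with IL-10 and 98 in untreated cells, a ratio of 0.596 (0.423 to 0.833). This was the lowest ratio of the 42 measured large-subunit genes, and each of the 4 introns with at least 5 reads was lower with IL-10. Mrpl12, the mobile stalk protein, had 72 reads with IL-10 and 79 in untreated cells, and Mrpl11, which sits beside the stalk base, had 54 with IL-10 and 55 untreated, so both were level within counting error. The stalk sum of 0.799 (0.655 to 0.974) thus rested on Mrpl10, and was 0.947 (0.737 to 1.22) without it.

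Mrpl10 and Mrpl45 lie 267861 bases apart on chromosome 11 and had opposite ratios, 0.596 and 1.47. On chromosome 17, Mrpl14 and Mrps18a lie 413082 bases apart and also differed, at 0.656 and 1.42. Mrpl46 and Mrps11 are transcribed away from each other on chromosome 7, with 2024 bases between their introns, and had 0.995 and 0.898. Mrpl58 and Mrps7, 193606 bases apart on chromosome 11, had 1.02 and 0.788, both with intervals that held 1. Of these 4 pairs, the intervals of both genes lay off 1, on opposite sides, in the first and second.

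Other conserved large-subunit proteins gave lower counts with IL-10. Mrpl13 had 300 reads with IL-10 and 380 in untreated cells, a ratio of 0.795 (0.681 to 0.928). The intron printed above had 64 reads with IL-10 and 126 in untreated cells, and all other introns together had 236 with IL-10 and 254 untreated, a ratio of 0.936 (0.781 to 1.12). Mrpl3, whose bacterial relative reaches towards the site of peptide bond formation, had 212 reads with IL-10 and 266 in untreated cells, a ratio of 0.803 (0.667 to 0.965). Mrpl14 had 43 reads with IL-10 and 66 in untreated cells, a ratio of 0.656 (0.436 to 0.978).
Mrpl43, which has no bacterial counterpart, had 126 reads with IL-10 and 171 in untreated cells, a ratio of 0.742 (0.585 to 0.940). Mrpl39, among the genes with the most reads, was level at 238 reads with IL-10 and 247 in untreated cells.

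**Figure D3:**
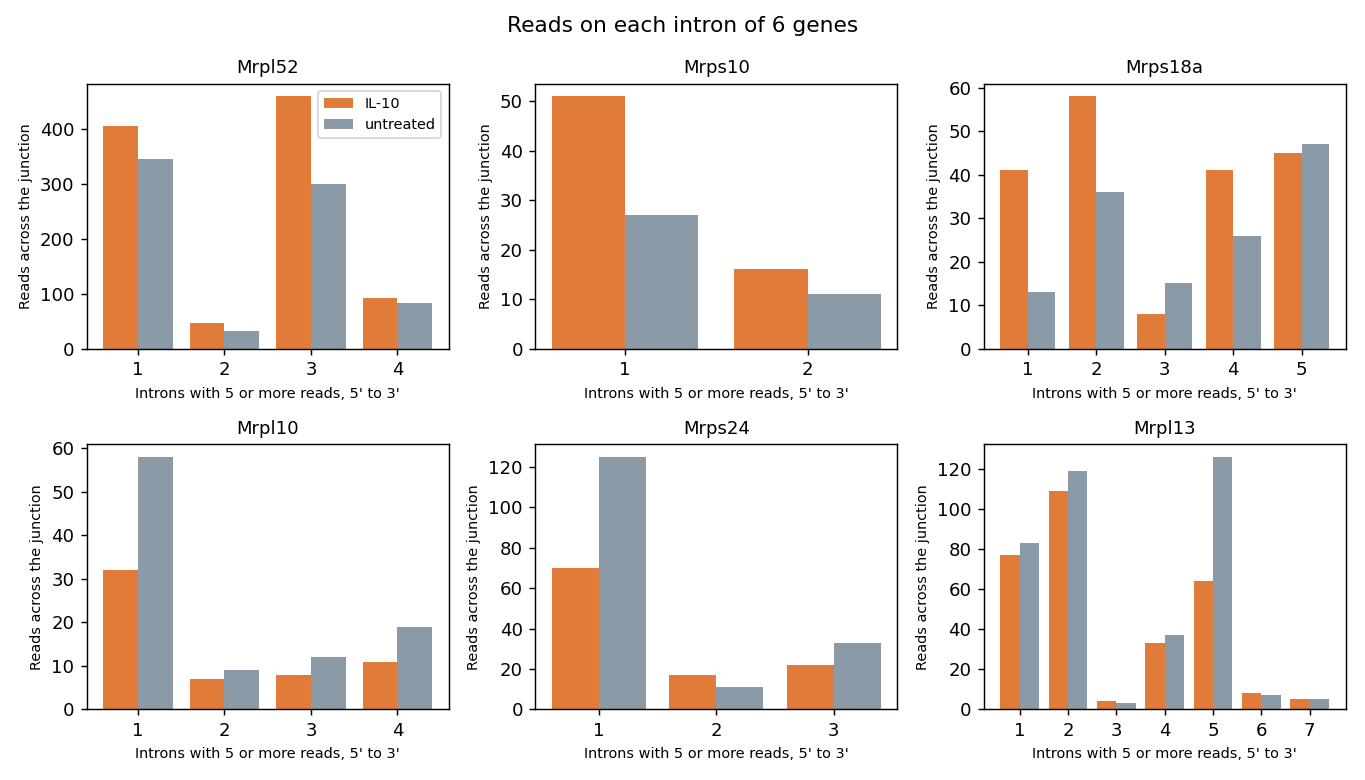
Reads on each annotated intron with 5 or more reads, in transcript order, for 6 genes, with the IL-10 library left of the untreated library in each pair (1 library each; linear axes from 0). Mrpl52 is higher with IL-10 on all 4 introns and Mrpl10 lower on all 4, while the Mrpl13 and Mrps24 deficits sit mainly on 1 intron.

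The central protuberance is the crown of the large subunit that faces the small one. Over all members, 47 of 70 (67.1%) had ratios below 1. Of the 7 measured genes listed here for the protuberance, 6 did, and no interval of the 7 excluded 1. Mrpl38 was the highest, with 131 reads under IL-10 and 114 untreated (1.16), and Mrpl55 the lowest, with 52 under IL-10 and 68 untreated (0.770). The other members of the group were Mrpl18 (0.874), Mrpl40 (0.911), Mrpl46 (0.995), Mrpl48 (0.889) and Mrps30 (0.853). Their sum was 448 with IL-10 and 475 in untreated cells, a ratio of 0.9502 (0.833 to 1.08).

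In the small subunit, the 6 genes for the decoding centre and the messenger RNA path all had ratios below 1. So did 22 of all 28 small-subunit genes (78.6%) and 50.1% of all genes. The 6 had 370 reads with IL-10 and 497 in untreated cells together, a summed ratio of 0.750 (0.654 to 0.860), and with any 1 gene left out the sum stayed between 0.732 and 0.802. Only Mrps24, the counterpart of bacterial S3 at the entry of the messenger RNA channel, had an interval below 1 on its own. It had 109 reads with IL-10 and 169 in untreated cells, a ratio of 0.650 (0.506 to 0.832). Its first intron, printed above, had 70 reads with IL-10 and 125 in untreated cells, its last had 22 with IL-10 and 33 untreated, and the middle one went the other way with 17 under IL-10 and 11 untreated.
Mrps12, the counterpart of bacterial S12 that monitors codon pairing, had 52 reads with IL-10 and 61 in untreated cells (0.859). Mrps7, which contacts the exit site, had 90 with IL-10 and 115 untreated (0.788), and each of the 4 introns with at least 5 reads was lower with IL-10. Mrps5, at the channel entry, had 53 with IL-10 and 67 untreated (0.797). These 3 were lower in the IL-10 library by less than their counting error. Mrps11 had 49 reads with IL-10 and 55 in untreated cells (0.898), and Mrps2 had 17 with IL-10 and 30 untreated (0.571, 0.295 to 1.07). How much of this group's low sum would return in other cultures is unknown with 1 library per condition.

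The small-subunit genes with an interval above 1 were Mrps10, Mrps18a and Mrps21. Mrps10, a protein of the head of the subunit, had 71 reads with IL-10 and 40 in untreated cells, a ratio of 1.79 (1.20 to 2.70), the largest of all 70. Of these reads 51 with IL-10 and 27 untreated were on the intron printed above, and the rest gave 1.55 (0.734 to 3.39). Mrps21 had 294 reads with IL-10 and 226 in untreated cells, a ratio of 1.31 (1.10 to 1.57), and both its introns were higher with IL-10.

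The mitochondrial ribosome has 3 proteins related to bacterial S18, and their genes did not have one ratio. Mrps18a had 193 reads with IL-10 and 137 in untreated cells, a ratio of 1.42 (1.13 to 1.78). Its introns disagreed: from the first to the fifth they had 41, 58, 8, 41 and 45 reads with IL-10, against 13, 36, 15, 26 and 47 in untreated cells. Introns 1, 2 and 4 were higher with IL-10, intron 3 was lower and intron 5 was level, and without the first intron the ratio was 1.23 (0.968 to 1.58). Mrps18b had 142 reads with IL-10 and 154 in untreated cells (0.929, 0.734 to 1.17), and Mrps18c had 35 with IL-10 and 39 untreated (0.904, 0.556 to 1.46). Both were level within counting error.

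The small-subunit gene with the most reads, Mrps15, had 499 reads with IL-10 and 579 in untreated cells, a ratio of 0.868 (0.769 to 0.980). Its first intron had 23 reads with IL-10 and 52 in untreated cells, and without that intron the ratio was 0.910 (0.802 to 1.03). Mrps17 had 235 reads with IL-10 and 262 in untreated cells (0.904), and Mrps23, which has no bacterial counterpart, had 255 with IL-10 and 238 untreated (1.08). Both intervals held 1.

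A few members have work beside or outside the ribosome. Mrpl58 frees stalled peptides from their transfer RNA, and had 130 reads with IL-10 and 128 in untreated cells, a level ratio of 1.02 (0.795 to 1.32). Mrps36 is now known as a part of the alpha-ketoglutarate dehydrogenase complex, despite its symbol, and had 35 reads with IL-10 and 23 in untreated cells, a ratio of 1.53 (0.881 to 2.72). Mrpl41, linked to cell cycle arrest in human cells, had only junctions too isolated to be matched in the main count, 20 reads with IL-10 and 11 in untreated cells.

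The remaining 19 large-subunit genes ranged from 0.769 (Mrpl19) to 1.60 (Mrpl42), with 11 above 1 and 8 below. Mrpl42, which has no bacterial counterpart, had 46 reads with IL-10 and 29 in untreated cells, with an interval of 0.983 to 2.64. The others, in rising order of ratio, were Mrpl36, Mrpl35, Mrpl1, Mrpl37, Mrpl28, Mrpl20, Mrpl33, Mrpl54, Mrpl44, Mrpl21, Mrpl4, Mrpl30, Mrpl15, Mrpl49, Mrpl9, Mrpl32 and Mrpl16. The remaining 12 small-subunit genes ranged from 0.605 (Mrps6, with 9 reads under IL-10 and 15 untreated) to 1.01 (Mrps14, with 16 reads in each library). Between them, in rising order, lay Mrps26, Mrps28, Mrps31, Mrps35, Mrps27, Mrps9, Mrps22, Mrps25, Mrps33 and Mrps16. No interval of these 31 genes excluded 1.

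Members were also grouped by descent. The 45 measured genes with a bacterial counterpart had 4806 reads with IL-10 and 5170 in untreated cells, a ratio of 0.937 (0.900 to 0.974), with 4 intervals above 1 and 8 below. The 25 without a bacterial counterpart had 3129 reads with IL-10 and 2924 in untreated cells, a ratio of 1.08 (1.02 to 1.13), with 3 intervals above 1 and 1 below. Over all genes 12.9% had an interval above 1 and 13.0% below, against 8.89% and 17.8% of the first group and 12% and 4% of the second. The second sum rested on Mrpl52: without it the other 24 had 2126 reads with IL-10 and 2161 untreated, on the other side of 1 with an interval that held it (0.991, 0.933 to 1.05). Without Mrpl52, the large-subunit genes lacking a counterpart had 1375 reads with IL-10 and 1333 in untreated cells, a ratio of 1.04 (0.963 to 1.12), and the small-subunit genes lacking one had 751 with IL-10 and 828 untreated, a ratio of 0.914 (0.827 to 1.01).

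Counts on the single introns of a gene scattered widely. Of the 338 introns of the measured members, 292 had 5 or more reads, and 197 of these lay on the same side of 1 as their gene's sum. In 20 of 70 members every such intron did. Each intron is part of its gene's sum, so some of this agreement is built in, and the share over all genes is not given here.

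Choice of splice site was compared where 2 or more annotated junctions share a donor or acceptor. Such sites with 20 or more reads in each library numbered 24, in 18 members, and none differed by 20 percentage points with intervals apart, against 0.327% of 2753 sites over all genes. Members at lower depth, with 10 or more reads, gave 36 sites and again none. The clearest cases of a choice were paired acceptors close together, shown here because the downstream exon starts at different bases. In Mrps36 the acceptors lie 6 bases apart. Mrpl55 has a pair 21 bases apart within its coding sequence, shown here, and a pair 3 bases apart at an intron outside it, chr11:59016162-59017673 and chr11:59016162-59017676.
Mrps36 near acceptor, chr13:101509157-101511122, minus strand: aacctaaactcagtgCCTCAGAAGCTTTGG
Mrps36 far acceptor, chr13:101509151-101511122, minus strand: aacctaaactcagtgAAGCTTTGGGGTCTG
Mrpl55 near acceptor, chr11:59017758-59018036, plus strand: ggccattctgcttagTGCCTGCACGTCTGT
Mrpl55 far acceptor, chr11:59017758-59018057, plus strand: ggccattctgcttagCCTGCTGAGGCATTG

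The near acceptor of Mrps36 had 23 of 32 reads (71.9%, exact binomial interval 53.2% to 86.3%) with IL-10 and 14 of 20 (70.0%, 45.7% to 88.1%) in untreated cells. The near acceptor of Mrpl55 had 6 of 13 reads (46.2%, 19.2% to 74.9%) with IL-10 and 8 of 30 (26.7%, 12.3% to 45.9%) in untreated cells. At the pair 3 bases apart, the near acceptor of Mrpl55 had 21 of 31 reads (67.7%, 48.6% to 83.3%) with IL-10 and 12 of 25 (48.0%, 27.8% to 68.7%) in untreated cells, a difference of 19.7 points. In all 3 pairs the intervals of the libraries overlapped. In Mrpl15, the far junction chr1:4764598-4767605 had 0 of 11 reads with IL-10, where the exact interval reaches 28.5%, and 8 of 15 in untreated cells (53.3%, 26.6% to 78.7%), at under 20 reads in each library and with intervals that overlap. Junctions outside the annotation were few within member genes, 76 in 49 members with 62 reads under IL-10 and 80 untreated. Only 4 had 5 or more reads, in Mrpl27 (9 with IL-10 and 18 untreated), Mrps24 (9 with IL-10 and 3 untreated), Mrps17 (0 with IL-10 and 5 untreated) and Mrpl47 (1 with IL-10 and 4 untreated), and the next by reads was in Mrpl37 (3 with IL-10 and 1 untreated).

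The 8 members that were not measured had fewer than 20 reads on introns matched to that gene alone. Matching needed at least 2 introns of a gene, so Mrpl34, Mrpl50 and Mrpl57, with 1 annotated intron each, were left out whatever their reads. Mrpl53, a protein near the stalk, had none, since its introns are shared with another annotated gene, and the shared introns had 11 reads with IL-10 and 32 in untreated cells, a ratio of 0.346 (0.158 to 0.705). Mrps34 had 8 reads with IL-10 and 6 in untreated cells on its own introns, and 57 with IL-10 and 79 untreated when shared introns were included. Mrpl57 had 27 with IL-10 and 38 untreated, and Mrpl34 had 7 with IL-10 and 1 untreated, both on isolated junctions. Mrpl27 had 2 reads in each library on its own introns, Mrpl23 had 1 read with IL-10 and none in untreated cells, and Mrpl50 had no matched junction.

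Genes that serve the mitochondrial ribosome were read beside its proteins. No related list had a median log2 ratio further from 0 than 0.14, and calls at 2-fold were single genes. The counts of intervals off 1 in these lists stand against 12.9% above and 13.0% below over all genes. Ribosomal proteins with other symbols (4 of 5 measured) had a median of -0.08 and no interval off 1, with Chchd1 at 94 reads with IL-10 and 122 in untreated cells (0.776, 0.587 to 1.02), Aurkaip1 at 0.893 and Ptcd3 at 1.02. Of 18 measured assembly factors none had an interval above 1 and 2 had one below. These were Rbfa, which matures the small subunit, with 95 reads with IL-10 and 130 in untreated cells (0.736, 0.559 to 0.967), and Mettl17, an assembly factor of the small subunit, with 48 reads under IL-10 and 77 untreated (0.628, 0.429 to 0.912), while Mtg1, a GTPase of large-subunit assembly, was at 0.753 (0.546 to 1.04).
Of 13 translation factors 2 had an interval above 1 and 1 below. Lrpprc, which stabilises mitochondrial messenger RNAs, had 585 reads with IL-10 and 507 in untreated cells (1.16, 1.03 to 1.31), its partner Slirp stood at 1.26 (0.948 to 1.67) and the release factor gene Mtrf1 at 0.882 (0.605 to 1.28). Mtfmt, which formylates the initiator transfer RNA, was past 2-fold on 41 reads with IL-10 and 20 in untreated cells (2.07), and is named after its value was seen.

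Among 16 transfer RNA synthetases Cars2 had 39 reads with IL-10 and 62 in untreated cells (0.634, 0.413 to 0.961), Rars2 stood at 1.16 and Tars2 at 1.38, both with intervals holding 1. Genes of mitochondrial transcription and its regulators had the highest median, 0.14 over 12 measured. Polrmt, the mitochondrial RNA polymerase, had 103 reads with IL-10 and 67 in untreated cells (1.55, 1.13 to 2.14). Pprc1, a coactivator of nuclear genes for mitochondria, had 160 with IL-10 and 101 untreated (1.60, 1.24 to 2.07). These were higher with IL-10 while Yy1 stood at 1.15 (0.936 to 1.42), and Gabpb1, named after its value was seen, was past 2-fold lower on 9 reads with IL-10 and 30 in untreated cells (0.302). Also named afterwards, Gabpa was level with 225 reads under IL-10 and 227 untreated (0.999, 0.827 to 1.21). Gabpb2 went the other way on 19 reads with IL-10 and 9 untreated (2.13, 0.917 to 5.34). Nrf1 stood at 0.887 (0.658 to 1.19).
Of 24 import and protein quality genes 3 had an interval above 1 and 2 below. Afg3l2, a subunit of the inner membrane protease that processes Mrpl32, had 574 reads with IL-10 and 362 in untreated cells, a ratio of 1.60 (1.40 to 1.83). Mrpl32 itself had 57 reads with IL-10 and 42 in untreated cells, a ratio of 1.37 (0.902 to 2.09). Clpx, of a matrix protease, stood at 1.39 (1.03 to 1.88) and Timm44, of the import motor, at 0.784 (0.630 to 0.975).
The cytosolic ribosomal proteins could be measured for only 21 of 83 genes, 4 with an interval above 1 and 5 below, and their median was 0.08. Rps14 had 1159 reads with IL-10 and 632 in untreated cells (1.85, 1.68 to 2.04), and Rpl38 was at 0.688 (0.455 to 1.03). These genes have many processed copies in the genome, so their counts are uncertain.

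**Figure D4:**
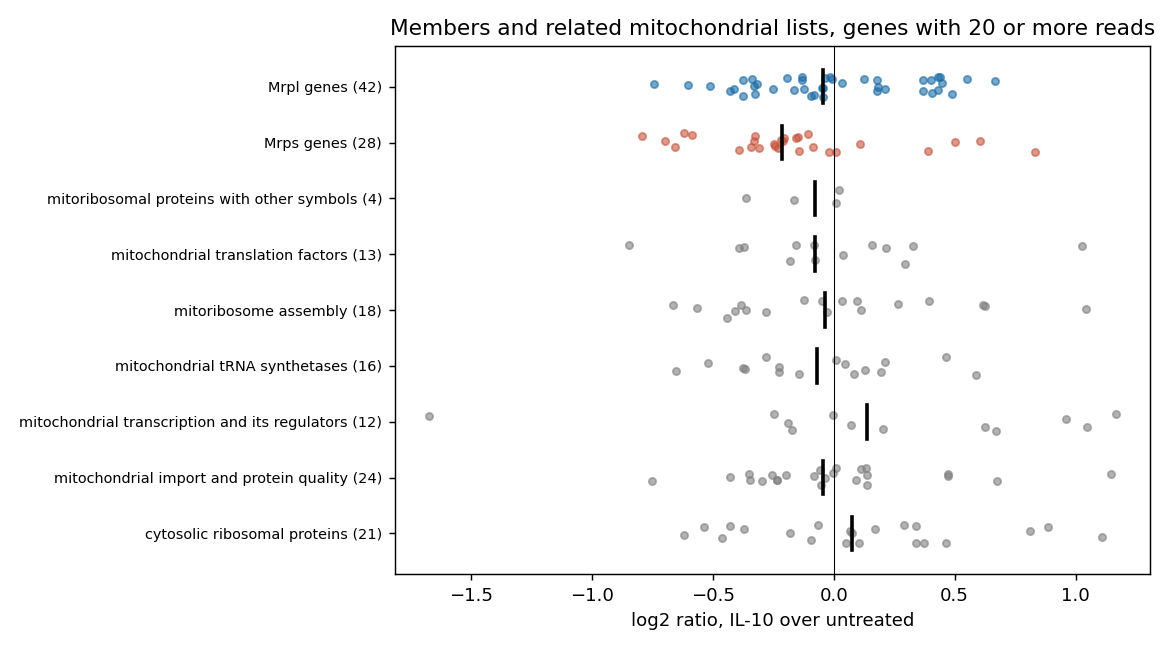
log2 ratio (IL-10 over untreated) of each gene with 20 or more reads, for the Mrpl and Mrps genes and 7 related lists, with the number of genes in brackets and the median as a black bar; 1 library per condition. The medians lie between -0.21 (Mrps genes) and 0.14 (mitochondrial transcription and its regulators), and each list has points on both sides of 0.

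The sequence before the start site of each member was not used in the counts. RefSeq promoter windows (GRCm38.p6, 250 bases before to 50 after the start) were found for 69 of 78 members and searched on both strands. CCGGAAG, the letters bound by ETS factors such as GABP, occurred in 37.7% of members (26 of 69), against 13.4% of all 16522 coding genes and 22.9% of the measured ones. The palindrome of nuclear respiratory factor 1, with any base allowed in its middle, occurred in 18.8% of members, against 7.44% of all and 13.1% of measured coding genes. ATGGCGG, the core letters of YY1, occurred in 18.8%, against 6.22% and 10.8%.
CACGTG (7.25%, against 9.18% of all coding genes) and TTCNNNGAA, the STAT letters (8.70%, against 9.02%), were no more frequent in members. The ETS letters occurred in 4 of 7 members with an interval above 1 and in 3 of the 8 with an interval below 1 that had a window, so members on both sides carried them. The nuclear respiratory factor 1 palindrome, with any middle base, occurred in 2 of the 7 and 2 of the 8, and ATGGCGG in 1 of the 7 and 0 of the 8. The 120 bases before the start are shown for 3 genes with higher and 1 with a lower ratio, with the ETS letters (Mrpl52 and Mrps18a) or the nuclear respiratory factor 1 palindrome (Mrpl45) in capitals, on either strand. The Mrpl10 stretch holds neither. Other members with a lower ratio do: Mrpl3 and Mrpl43 hold the ETS letters and Mrpl17 the palindrome in their 120 bases. The stretches shown therefore do not stand for either side.
Mrpl52, chr14:54426789-54426908, plus strand: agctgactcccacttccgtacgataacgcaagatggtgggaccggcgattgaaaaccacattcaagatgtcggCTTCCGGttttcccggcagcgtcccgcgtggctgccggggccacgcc
Mrps18a, chr17:46110884-46111003, plus strand: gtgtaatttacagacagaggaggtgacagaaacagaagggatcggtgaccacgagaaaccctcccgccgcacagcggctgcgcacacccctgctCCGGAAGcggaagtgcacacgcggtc
Mrpl45, chr11:97315596-97315715, plus strand: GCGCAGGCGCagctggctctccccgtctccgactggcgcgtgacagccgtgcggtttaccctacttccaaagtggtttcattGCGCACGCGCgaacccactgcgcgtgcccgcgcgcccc
Mrpl10, chr11:97041462-97041581, plus strand: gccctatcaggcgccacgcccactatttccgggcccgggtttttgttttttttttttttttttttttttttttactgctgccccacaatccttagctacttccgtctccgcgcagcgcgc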

How the data were processed

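TopHat, Cufflinks and the mm9 build are named, with no version or role, in the submitters' processing notes. The authors deposited, for each of the 2 libraries, a read count per splice junction, without scaling. Groups were taken from the sample titles, since the untreated sample carries the same protocol text as the IL-10 sample.

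Junctions were named from GENCODE M21 (a later build) by exact intron length and strand, where at least 2 introns of a gene shared 1 offset of up to 20 Mb. A single gene was matched by 105030 of the 131057 junctions. The named reads were 3837522 (IL-10) and 3866087 (untreated). A ratio is that of a gene's shares of named reads, with an exact conditional binomial (Clopper-Pearson) 95% interval, for counting error only. PCR copies are not independent molecules, so true errors are wider. A call needed 20 reads, an interval off 1 and a 2-fold difference. log2 ratios used a pseudocount of 0.5 reads. The code was tested on simulated data.

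Genes were named in the text if they were among the 10 members with the most reads, had an interval off 1, belonged to a group by role, or were the 3 genes of a related list with 100 or more reads and the largest log2 ratios, and the 5 members with the most reads outside the annotation. Other members are named to account for all. One gene that this rule names in a related list is not reported here. Members and lists were chosen with earlier results of these data known. Alternatives included edgeR 4.0.16 (TMM) and DESeq2 1.42.0 size factors in R 4.3.3. The rest ran in Python 3.11.15 with scipy 1.17.1. Only the junction counts were analysed here.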

Additional observations from a re-analysis of the deposited data

How the results depend on the processing

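No paired analysis was possible because each condition has 1 library, and for the same reason no replicate could be left out. With a fold of 1.5 in place of 2, 1 member was called higher (Mrps10) and 3 lower (Mrps24, Mrpl10 and Mrpl14). With 99% intervals, 3 members lay below 1 in place of 9, and the small-subunit sum kept its ratio of 0.937 with an interval that held 1 (0.876 to 1.002). Using each gene's best-covered intron, 67 members passed the minimum of 20 reads, 5 lay below 1, 2 were called higher (Mrpl4 and Mrpl45) and 1 lower (Mrpl47), the large-subunit sum was 1.07 (1.01 to 1.13) and the small-subunit sum 0.972 (0.897 to 1.05). With shared introns and isolated junctions included, 1 of 74 members was called lower (Mrpl53). With the trend over transcript length and GC content removed, the median log2 ratio of all members was -0.049 in place of -0.13, and that of the large subunit 0.0087 in place of -0.04. This setting gave no summed ratios, and its small-subunit median is not given here, so the difference between subunits under it cannot be read. The part of length and GC content in the ratios was not tested. Under TMM factors, DESeq2 size factors, the total of all junction reads, a pseudocount of 5 reads and a minimum of 0 or 100 reads, the counts of intervals off 1 stayed at 7 above and 9 below, the counts of calls at 0, and each summed ratio on its side of 1 with its interval holding 1 or not as before. Member by member, 8 of the 16 intervals off 1 were lost at 99%, 6 on the best-covered intron and 3 after removal of the trend, and 3 other members gained one in each of the last 2 settings. The best-covered intron thus gave 8 above and 5 below, and removal of the trend 10 above and 6 below, in place of 7 above and 9 below. Shares over all genes under the alternative settings are not given here. The counts of members under them, with calls at a fold of 1.5 among these, therefore cannot be set against a background. Leaving out introns and members in turn and setting members beside short genes were chosen after seeing the data. Depth limits single genes: Mrpl21, with 36 reads under IL-10 and 32 untreated, had an interval of 0.684 to 1.89.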
